A study of Mus musculus with 4 samples.

Results

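The Schlafen genes are a family of growth and interferon response genes that lie side by side on mouse chromosome 11. The 7 members described here are Slfn1, Slfn2, Slfn3, Slfn4, Slfn5, Slfn8 and Slfn9, taken by symbol from 24421 genes with deposited read counts. All 7 symbols were present, and all 7 passed the filter on low counts, as did 16322 genes in all. The cells were regulatory T cells (Tregs, CD4+ T cells that restrain immune responses) of strain B6 Foxp3-DTR/GFP, a mouse whose Tregs carry a green fluorescent reporter and the diphtheria toxin receptor at Foxp3. They came from a tumor-free, CD45.1- partner that was surgically joined to a CD45.1+ mouse carrying EG7.1.15 tumor cells, injected into the peritoneum, so that partner cells reached its tissues through shared blood. At day 14, live cells that were CD45.1- and CD45.2+, lacked B220 and carried CD4, CD25 and the Foxp3 (GFP) reporter were sorted from the omental tumors and from the spleens of the tumor-bearing mice. Each tissue gave 2 libraries, from mouse 2 and mouse 3, and the comparison asks how Tregs that homed to omental tumor differ from those that homed to spleen.

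Schlafen proteins take their name from the German word for sleep, because the first ones found were linked to the resting state and slowed growth of T cells. Many Schlafen genes are induced by type I interferon, and several of the proteins bind or cut transfer RNA. Short members (Slfn1, Slfn2) hold the conserved Schlafen core, intermediate members (Slfn3, Slfn4) add a linker part, and long members (Slfn5, Slfn8, Slfn9) add a helicase-like part. The longest coding sequences in GENCODE M21 followed these classes. They were 1011 and 1134 bases for Slfn1 and Slfn2, 1551 and 1806 bases for Slfn3 and Slfn4, 2652 bases for Slfn5 and 2730 bases each for Slfn8 and Slfn9.

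On build GRCm38 (mm10), the + strand held Slfn5 (chr11:82951349-82964840), Slfn2 (chr11:83065112-83070678), Slfn1 (chr11:83116849-83122670), Slfn4 (chr11:83175186-83190216) and Slfn3 (chr11:83191330-83215154). The - strand held Slfn9 (chr11:82978390-82991830) and Slfn8 (chr11:83002158-83020810). The bases upstream of the RefSeq start sites (GRCm38.p6) are shown for Slfn1, Slfn2, Slfn8 and Slfn4. The first 3 were lower in omental tumor by over 2-fold in both mice at the main scaling given below, and Slfn4 was the member called. Each run is the 250 bases before the start site, written 5′ to 3′ on the strand of the gene. The RefSeq start of Slfn1 lies upstream of the GENCODE start, and that of Slfn5 lies inside the GENCODE gene. Slfn8 has 2 RefSeq starts, and the outer one is used. Capitals mark ACTTCCTGG in the first 3 sequences and the interferon-stimulated response element core in the Slfn8 sequence. The regions are chr11:83064862-83065111 for Slfn2, chr11:83116570-83116819 for Slfn1, chr11:83174936-83175185 for Slfn4 and chr11:83020811-83021060 for Slfn8.
Slfn2: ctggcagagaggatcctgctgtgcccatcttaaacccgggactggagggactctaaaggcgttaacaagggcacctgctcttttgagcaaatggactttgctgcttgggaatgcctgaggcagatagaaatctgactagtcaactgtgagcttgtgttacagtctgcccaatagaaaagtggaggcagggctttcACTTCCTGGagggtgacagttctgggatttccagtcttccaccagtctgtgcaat
Slfn1: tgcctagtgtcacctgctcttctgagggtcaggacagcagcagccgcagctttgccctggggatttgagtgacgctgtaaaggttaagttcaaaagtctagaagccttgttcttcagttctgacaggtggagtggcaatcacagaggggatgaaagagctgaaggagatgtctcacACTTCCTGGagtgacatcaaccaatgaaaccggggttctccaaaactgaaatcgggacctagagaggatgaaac
Slfn4: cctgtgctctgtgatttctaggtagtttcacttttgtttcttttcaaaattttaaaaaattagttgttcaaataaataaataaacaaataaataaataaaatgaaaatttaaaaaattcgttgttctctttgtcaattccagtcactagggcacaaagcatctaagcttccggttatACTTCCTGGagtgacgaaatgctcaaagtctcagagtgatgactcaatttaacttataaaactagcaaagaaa
Slfn8: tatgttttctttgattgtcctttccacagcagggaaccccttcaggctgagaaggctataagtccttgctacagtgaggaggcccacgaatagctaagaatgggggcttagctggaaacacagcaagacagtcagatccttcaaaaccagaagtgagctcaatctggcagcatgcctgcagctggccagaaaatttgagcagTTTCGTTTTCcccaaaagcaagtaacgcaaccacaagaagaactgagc

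The run ACTTCCTGG was the longest one common to the upstream bases of Slfn1, Slfn2, Slfn3 and Slfn4, searched on both strands. It began 74, 55, 42 and 73 bases before the start site in that order, and 0.7% of 32851 RefSeq promoters of the same length held it. It was found by comparing these promoters with their expression values known. The core of the interferon-stimulated response element, GAAA and GAAA with any 2 bases between them, searched on both strands, lay upstream of the RefSeq starts of Slfn5, Slfn8 and Slfn9 and in 2.98% of all promoters. Slfn8 and Slfn9 carried the same 10 bases at 48 and 45 bases before the start (136 bases before the inner Slfn8 start), as these short windows show (Slfn8 at chr11:83020839-83020868, Slfn9 at chr11:82991856-82991885, capitals again marking the core).
Slfn8: atttgagcagTTTCGTTTTCcccaaaagca
Slfn9: atccgagcagTTTCGTTTTCccaaaaacaa
No match to that core was found in the windows of the other 4 members. The STAT core TTCNNNGAA, which reads the same on both strands, matched none of the 7 and 7.02% of all promoters. A match is a run of letters, not a measured binding site.

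Gene counts per library ran from 3764508 to 13598631, and both omental libraries held fewer than either spleen library. A count of 3 stood for 0.274 to 0.757 CPM, where CPM is the usual depth-scaled count, taken over each library's gene total times its TMM factor. The sort markers were present in every library, with Foxp3 at 81.1 and 84.0 CPM in omental tumor of mouse 2 and mouse 3, and at 112.5 and 144.0 CPM in spleen. Il2ra (CD25) and Cd4 were lowest in the omental library of mouse 3, at 318 and 114 CPM, against at least 688 and 375 CPM in the other libraries. That library also stood apart for S100a8 and S100a9, the calgranulin genes that mark neutrophils, at 410 and 474 CPM against at most 9.48 CPM in the other libraries. Omental tumor and spleen differed in 233 of 16322 genes (1.43%) in edgeR's quasi-likelihood test with Benjamini-Hochberg adjustment at 0.05, 190 higher (1.16%) and 43 lower (0.263%) in omental tumor. The split was 210 higher and 13 lower with upper-quartile factors, and 26 and 2 with library gene totals alone.

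Slfn1, Slfn2 and Slfn8 had lower levels in the omental tumor of each mouse than in its spleen, by 2.48-fold to 8.48-fold, and none of the 3 passed the adjusted threshold. With library gene totals alone, their log2 ratios ran from -2.92 (Slfn1, mouse 2) to -0.93 (Slfn8, mouse 3), the last being under 2-fold. Slfn4 was near the floor of the family in 3 libraries and the most abundant Schlafen gene in the omental library of mouse 3. Slfn5 and Slfn9 moved in opposite directions in the mice, and Slfn3 stayed within a narrow range in the 4 libraries. In counts, 1 of the 7 members was called, Slfn4, higher in omental tumor (1.16% of all tested genes were). At an unadjusted p of 0.05, Slfn4 was higher (4.97% of genes were) and Slfn1 lower (5.28% of genes were). Both omental libraries lay below both spleen libraries for 4 members, Slfn1, Slfn2, Slfn3 and Slfn8, a pattern that 25.4% of tested genes showed. The reverse pattern, in 16.4% of genes, held for 0 members. The median log2 fold change (omental tumor over spleen) was -0.69 over the 7 members and 0.13 over all genes tested.

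**Figure D1:**
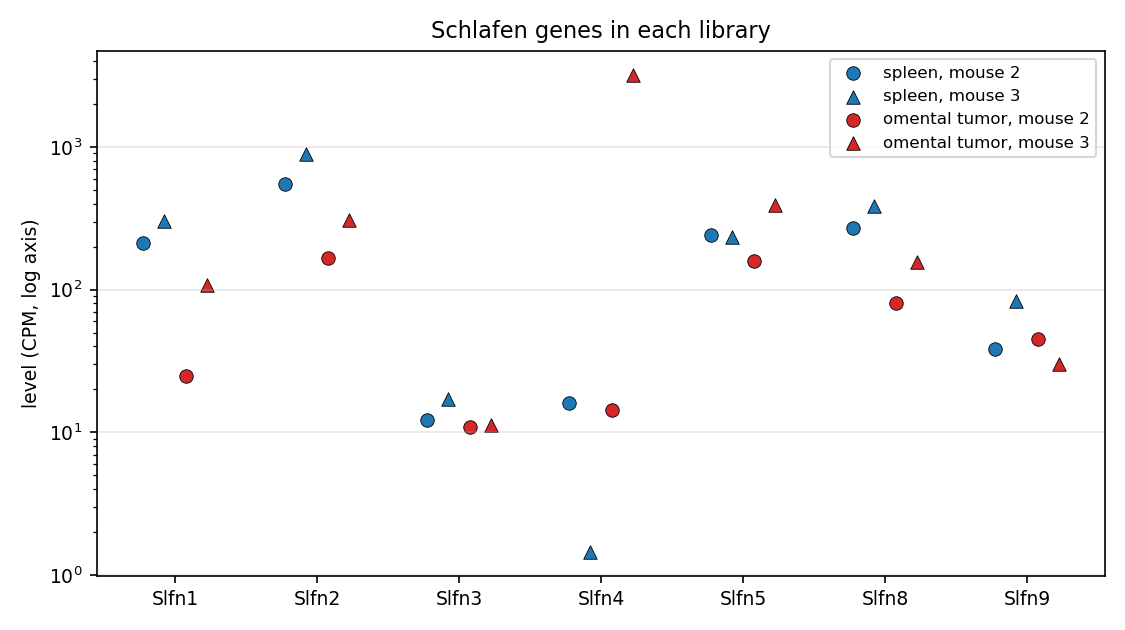
CPM (log axis) of the 7 Schlafen genes in each library, circles for mouse 2 and triangles for mouse 3, spleen in blue and omental tumor in red. Red points lie below blue ones for Slfn1, Slfn2 and Slfn8, and the Slfn4 point of the mouse 3 omental library, at 3205 CPM, lies far above the other 3.

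Among the short members, Slfn2 keeps T cells and monocytes quiescent, and mice with a loss-of-function allele have T cells that die when activated. Its level was 166 CPM (1267 counts) in omental tumor of mouse 2 and 307 CPM (1216 counts) in that of mouse 3. In spleen it was 550 CPM (5637 counts) in mouse 2 and 890 CPM (9763 counts) in mouse 3. The groups did not overlap, and mouse 3 was higher than mouse 2 in both tissues. Within mouse 2 the spleen level was 3.32 times the omental level, and within mouse 3 it was 2.90 times. The log2 fold change was -1.61 (SE 0.86), with an adjusted p of 0.524 in edgeR's quasi-likelihood test. It lay between -2.21 without the mouse 3 omental library and -0.87 without the mouse 3 spleen library.

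Slfn1, the founding member, rises as thymocytes mature and restrains T cell growth when overexpressed. It stood at 24.99 CPM (191 counts) and 107 CPM (424 counts) in omental tumor of mouse 2 and mouse 3. In spleen it stood at 212 CPM (2173 counts) and 304 CPM (3334 counts). The omental values were lower in both mice but 4.28 times apart, whereas the spleen values were 1.43 times apart. The log2 ratio of omental tumor over spleen was -3.08 in mouse 2 (95% counting interval -3.31 to -2.87) and -1.51 in mouse 3 (-1.66 to -1.36). Such intervals are exact binomial ones on reads without molecular identifiers, so they cover counting error only. Over both mice the log2 fold change was -1.97 (SE 0.78, unadjusted p = 0.0114, adjusted p = 0.282 in edgeR). Leaving out single libraries moved it between -3.46 (omental, mouse 3) and -1.25 (spleen, mouse 3), and it missed the threshold each time.

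Slfn8, a long member with a helicase-like part, is known from lymphoid and myeloid cells. It was counted at 80.6 and 155 CPM in omental tumor of mouse 2 and mouse 3, and at 269 and 385 CPM in spleen. As for Slfn2, the tissues did not overlap and mouse 3 was the higher mouse in each. The spleen level was 3.34 times the omental level in mouse 2 and 2.48 times in mouse 3. The log2 fold change was -1.47 (SE 0.79), and the adjusted p of edgeR's test was 0.520. Leaving out single libraries moved the log2 fold change between -2.11 (omental, mouse 3) and -0.84 (spleen, mouse 3). Over the 4 libraries the centred log2 levels of Slfn8 and Slfn2 differed by a root mean square of only 0.09, the closest pair among the 7 members. Slfn1 differed from Slfn2 and Slfn8 by 0.54 and 0.56, more than Slfn3 differed from Slfn9 (0.33) or from Slfn5 (0.53).

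This likeness is a description over 4 points that share 2 mice. By the same measure 472 of 9048 genes with a mean of at least 10 CPM lay within 0.5 of Slfn2, and 565 within 0.5 of Slfn8. The nearest to Slfn2 were Hyal2, a hyaluronidase gene (0.06), 1600014C10Rik (0.07) and Zfp688, a zinc finger gene (0.11). The nearest to Slfn8 were 1600014C10Rik (0.07), Klf2 (0.08) and 2610035D17Rik (0.09). Klf2, a transcription factor of resting T cells, stood at 4.97 and 11.1 CPM in omental tumor and 17.2 and 24.6 CPM in spleen. Its log2 fold change was -1.41, with an adjusted p of 0.596 in edgeR.

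**Figure D2:**
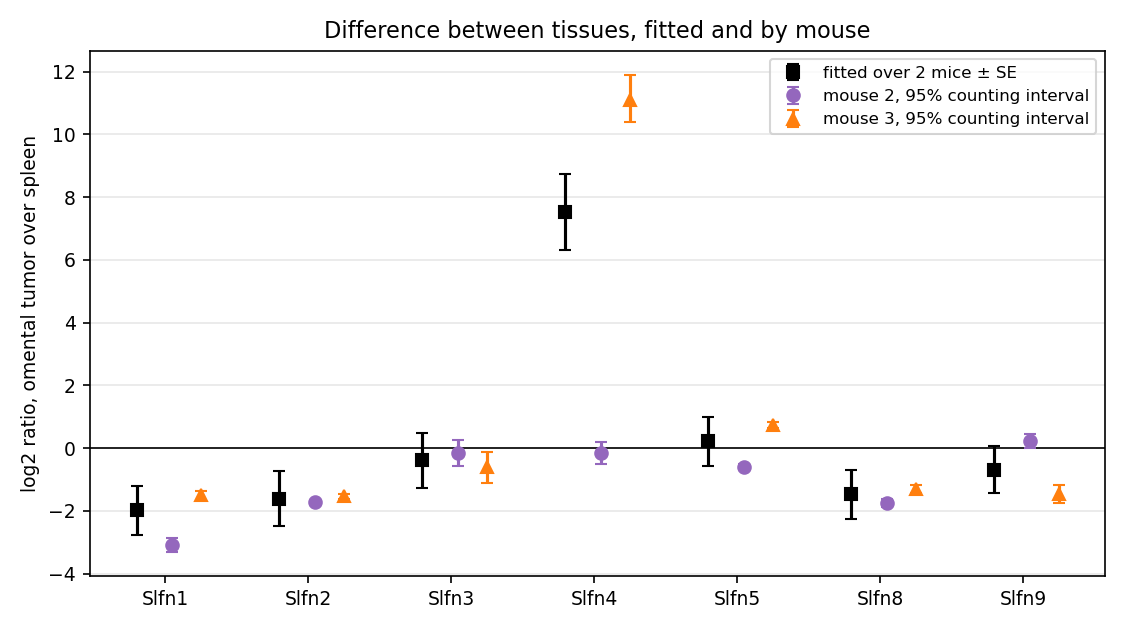
Log2 ratio of omental tumor over spleen for each Schlafen gene, with black squares for the value fitted over 2 mice (bars, SE), circles for mouse 2 and triangles for mouse 3 (bars, 95% counting interval). Both mice lie below 0 for Slfn1, Slfn2 and Slfn8, while for Slfn4 mouse 2 is at -0.15 and mouse 3 at 11.10.

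Slfn4, an intermediate member, is best known from macrophages, neutrophils and other myeloid cells, where interferon and Toll-like receptor signals induce it. Its counts were 110 in omental tumor of mouse 2 and 12701 in omental tumor of mouse 3. In spleen there were 164 counts in mouse 2 and 16 in mouse 3. These are levels of 14.4 and 3205 CPM in omental tumor and 16.0 and 1.46 CPM in spleen. A single library was high, and the omental library of mouse 2 lay within the range of the spleen libraries. Slfn4 was the member that passed edgeR's test, at 7.53 on the log2 scale (SE 1.23, adjusted p = 5.87e-07). Leaving out the mouse 3 omental library gave 0.65 (adjusted p = 0.832), and leaving out the mouse 3 spleen library gave 7.18 (adjusted p = 0.165). With the mouse as a replicate block it was 5.35 (adjusted p = 0.248). The within-mouse log2 ratio was -0.15 in mouse 2 (95% counting interval -0.51 to 0.21) and 11.10 in mouse 3 (10.40 to 11.91).

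The neutrophil marker sum, like Slfn4, was highest in the omental library of mouse 3. The macrophage and monocyte sum was highest in omental tumor of mouse 2, an order that rested on Ccr2. The summed CPM of 11 neutrophil markers was 150 and 1453 in omental tumor of mouse 2 and mouse 3, and 96.0 and 73.5 in spleen. From 1 to 2 of them were at a count of 0 in each library, and 4 of 8 tested were called higher (1.16% of all tested genes were). The number called was 5 with upper-quartile factors, 3 with DESeq2, 1 with limma-voom and 0 with library gene totals alone. With the replicate block 0 of 8 were called, with S100a9 at 1.92 (adjusted p = 0.637) and S100a8 at 1.07 (adjusted p = 0.845). In mouse 2 both had lower omental than spleen levels, at 1.57 against 9.07 CPM for S100a9 and 0.131 against 6.24 CPM for S100a8. The summed CPM of 16 macrophage and monocyte markers came to 1284 and 1167 in the omental libraries against 423 and 927 in the spleen libraries. None was at 0, and 3 of 15 tested were called higher (1.16% of all tested genes were), or 0 with library gene totals alone. The most abundant of them, Ccr2, stood at 737 and 207 CPM in omental tumor and 184 and 462 CPM in spleen. Without Ccr2, the omental library of mouse 3 had the highest of these sums. Lyz2, the lysozyme gene of macrophages and neutrophils, stood at 249.3 and 296 CPM in omental tumor and 6.83 and 61.6 CPM in spleen. The part of such cells in the Slfn4 level was not tested. In bulk RNA, fewer cells of a type and less RNA per cell cannot be told apart.

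The 3 genes nearest in pattern to Slfn4 were Spp1 (osteopontin), Trem1 (a receptor of neutrophils and monocytes) and Cyp4f18 (a leukotriene-metabolising enzyme of neutrophils). Their root mean square differences from Slfn4 were 1.16, 1.21 and 1.28, and 0 of 9048 genes lay within 0.5. Spp1 stood at 9.29 and 821 CPM in omental tumor of mouse 2 and mouse 3, and at 9.75 and 3.92 CPM in spleen. Trem1 was counted at 6.28 and 136 CPM in omental tumor, at 1.56 CPM in spleen of mouse 2 and at 0 counts in that of mouse 3. Cyp4f18 was found at 4.45 and 247 CPM in omental tumor and 0.975 and 0.730 CPM in spleen. Each was highest in the omental library of mouse 3, the library that was high for Slfn4, but Trem1 and Cyp4f18 were also above spleen in mouse 2.

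Slfn3, the second intermediate member, is known from the differentiation of rodent gut epithelium and from T cells. It was low in every library, at 10.99 and 11.4 CPM in omental tumor (84 and 45 counts) and 12.2 and 17.1 CPM in spleen (125 and 188 counts). The tissue ranges did not overlap by a small margin, and they overlapped when library gene totals alone set the scale (12.6 and 11.95 against 12.5 and 13.8 CPM). The log2 fold change was -0.39 (SE 0.86, adjusted p = 0.880 in edgeR). Its direction turned with upper-quartile factors (0.13) and without the spleen library of mouse 3 (0.13).

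Of the remaining long members, Slfn5 encodes a nuclear protein whose human counterpart restrains interferon-driven transcription. It stood at 158 and 391 CPM in omental tumor of mouse 2 and mouse 3, and at 241 and 232 CPM in spleen. The spleen libraries nearly coincided and lay between the omental ones. The log2 ratio was -0.61 in mouse 2 (95% counting interval -0.71 to -0.51) and 0.75 in mouse 3 (0.66 to 0.84). Over both mice the log2 fold change was 0.21 (SE 0.78, adjusted p = 0.929 in edgeR), and it turned to -0.67 without the omental library of mouse 3.

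Slfn9, a long member beside Slfn8 in the cluster, was found at 44.9 and 30.3 CPM in omental tumor and 38.2 and 83.3 CPM in spleen of mouse 2 and mouse 3. Here the mice moved the other way round, with log2 ratios of 0.23 in mouse 2 (0.02 to 0.44) and -1.46 in mouse 3 (-1.75 to -1.18). The log2 fold change was -0.69 (SE 0.74, adjusted p = 0.757 in edgeR), and 0.18 without the spleen library of mouse 3. Slfn5 and Slfn9 thus lie in opposite corners of the plot of tissue ratios by mouse.

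Members share near-identical stretches, in which reads may not be assigned to 1 gene. Alignments that were not unique made up 28.0% to 49.9% of the entries in each file, and the part of them from Schlafen genes was not measured. Of all runs of 50 bases in the GENCODE transcripts of a member, 0.606% for Slfn1 and 4.27% for Slfn2 occurred exactly in another gene. The share was 11.3% for Slfn4, 11.7% for Slfn5, 12.1% for Slfn9, 15.0% for Slfn8 and 23.7% for Slfn3. Slfn3 shared most with Slfn4, and Slfn8 and Slfn9 with the pseudogene Slfn10-ps. Slfn5 shared 7.80% with Slfn5os, an antisense gene that overlaps it. The libraries do not mark strand, and Slfn5os itself had 2 counts in 1 library and 0 in the others. Levels of Slfn3, Slfn4, Slfn5, Slfn8 and Slfn9 are therefore less certain than those of Slfn1 and Slfn2.

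Per kilobase of exon, Slfn2 led the family in spleen, at 330 CPM per kb in mouse 2 and 535 in mouse 3. Slfn1 followed at 114 and 163, Slfn8 at 67.1 and 95.9, and Slfn5 at 39.9 and 38.5 CPM per kb. Slfn9 (6.496 and 14.2) and Slfn3 (6.71 and 9.44) overlapped, and Slfn4 was lowest (4.03 and 0.368). This order, apart from the overlapping pair, held in both spleen libraries. In omental tumor of mouse 2, Slfn2 still led at 99.6 CPM per kb, and Slfn1, at 13.4, fell behind Slfn5 (26.2) and Slfn8 (20.1). In omental tumor of mouse 3, Slfn4 led at 808 CPM per kb, ahead of Slfn2 at 184, Slfn5 at 64.7 and Slfn1 at 57.4.

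As shares of the summed CPM per kb of the 7 members, Slfn2 made up 58.1% and 62.5% in spleen and 56.4% in omental tumor of mouse 2. It made up 15.8% in omental tumor of mouse 3, where Slfn4 made up 69.4%. Shares of the other members in that library are lowered by Slfn4, so they were also taken over the 6 members without it. Slfn2 then took 57.6% and 51.7% of the omental sums and 58.6% and 62.5% of the spleen sums. For Slfn1 the omental shares were 7.75% and 16.1% against 20.1% and 19.1% for spleen, and for Slfn5 they were 15.1% and 18.2% against 7.07% and 4.50%. Without Slfn4, the summed level of the other 6 members was 485 and 1001 CPM in omental tumor and 1322 and 1912 CPM in spleen. Both omental sums lay below both spleen sums, although Slfn5 and Slfn9 did not show that order.

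**Figure D3:**
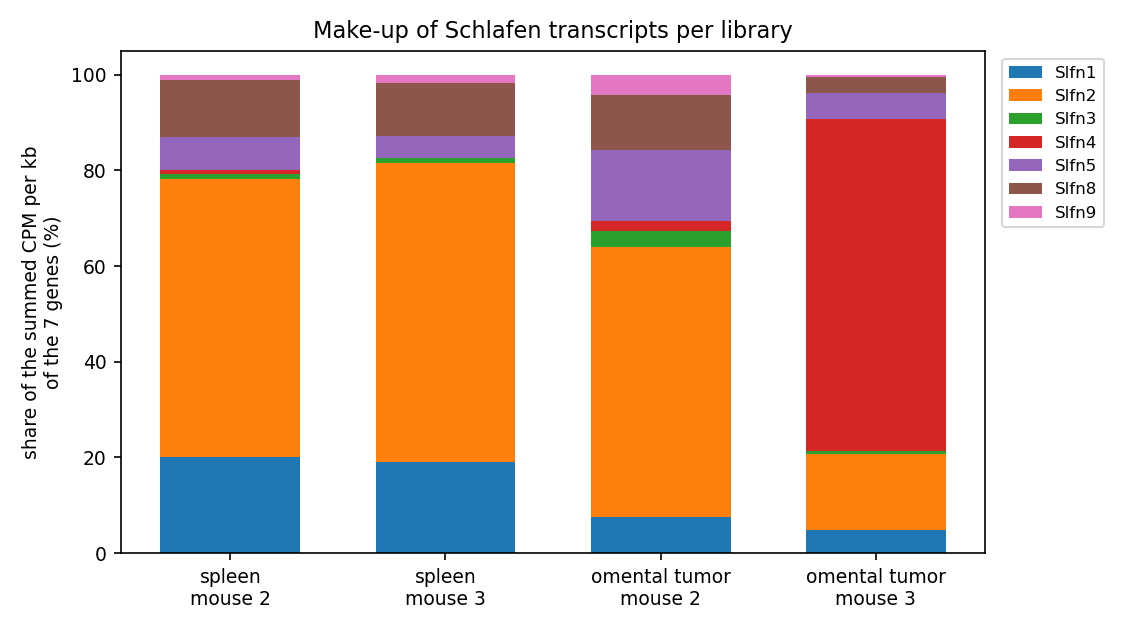
Share of the summed CPM per kb of the 7 Schlafen genes that each gene took in each library (stacked bars, total 100%). Slfn2 takes 56.4% to 62.5% in 3 libraries, and Slfn4 takes 69.4% in omental tumor of mouse 3.

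The other genes of the cluster include Slfn10-ps, a transcribed pseudogene next to Slfn8, and Slfn14, a long member known from platelets and reticulocytes. Slfn10-ps stood at 41.6 and 26.0 CPM in omental tumor of mouse 2 and mouse 3, and at 88.6 and 121 CPM in spleen. The tissues did not overlap, and the log2 fold change was -1.63 (SE 0.75, adjusted p = 0.424 in edgeR). Slfn14 stood at 6.28 and 1.77 CPM in omental tumor and 6.44 and 0.274 CPM in spleen, so it was higher in mouse 2 than in mouse 3 in both tissues. Its log2 fold change was 0.34 (adjusted p = 0.912). Slfnl1, a Schlafen-like gene, had 1 count in omental tumor of mouse 2 and 0 in the other 3 libraries.

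Genes beside the cluster included Fndc8, Nle1 and Unc45b on one side and Ap2b1 and Rasl10b on the other. Of these, 4 were tested and none was called. Ap2b1, an adaptor gene of clathrin coats, stood at 109 and 44.7 CPM in omental tumor and 103 and 156 CPM in spleen (log2 fold change -0.75, adjusted p = 0.738 in edgeR). Nle1, a ribosome assembly gene, had a log2 fold change of -0.95 (adjusted p = 0.716). Fndc8 and Unc45b, at most 3.14 CPM in any library, had 1.13 and 1.74 (adjusted p = 0.755 and 0.684). Rasl10b had at most 0.252 CPM and was not tested.

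Interferon is a main inducer of Schlafen genes, and its pathway was read from receptors to targets. Of 7 receptor and kinase genes tested 0 were called, with a median log2 fold change of -0.18. Jak2 stood at 138 and 103 CPM in omental tumor and 28.8 and 43.9 CPM in spleen (1.73, adjusted p = 0.365 in edgeR). Tyk2 had a log2 fold change of -1.80 (adjusted p = 0.373) and Jak1 one of -1.24 (adjusted p = 0.658). Of 8 STAT and IRF factors 0 were called, 7 had negative values (7527 of all 16322 tested genes did), and the median was -1.0. The factor with a positive value was Irf7 (0.60, adjusted p = 0.790 in edgeR). Irf7 stood at 60.5 and 495 CPM in omental tumor of mouse 2 and mouse 3, and at 153 and 214 CPM in spleen. Irf9 and Stat2, which form the factor that binds interferon response elements, stood at 117 and 107 CPM and at 73.7 and 95.1 CPM in omental tumor. In spleen Irf9 stood at 312 and 445 CPM and Stat2 at 146 and 225 CPM. Irf9 (log2 fold change -1.75, adjusted p = 0.413), Irf3 (-1.22, adjusted p = 0.589) and Stat2 (-1.14, adjusted p = 0.629) did not pass.

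Of 30 interferon-stimulated genes tested, 3 were called higher (1.16% of all tested genes were) and 0 lower. The median of the 30 was 0.09 on the log2 scale against 0.13 for all genes, with 17 positive and 13 negative values. The mice differed, as the summed level of the list had a log2 ratio of -0.51 in mouse 2 and 0.94 in mouse 3. In mouse 3, the ratios of the genes not called ran from -2.17 (Parp9) to 3.44 (Cmpk2). The 3 were Rsad2 (viperin), Oasl1 and Ifit3, antiviral effectors whose log2 fold changes were 5.82 (adjusted p = 1.69e-05 in edgeR), 3.13 (0.00973) and 2.93 (0.0239). Rsad2 stood at 20.4 and 2168 CPM in omental tumor of mouse 2 and mouse 3, and at 15.9 and 22.7 CPM in spleen. Oasl1 stood at 3.79 and 262 CPM against 13.3 and 16.96 CPM, and Ifit3 at 10.2 and 509 CPM against 30.3 and 37.8 CPM. As with Slfn4, 1 library was high, the omental library of mouse 3. Without it the log2 fold changes were -0.011, -2.08 and -1.83 (adjusted p = 0.996, 0.802 and 0.802). With the replicate block they were 3.49, 1.15 and 1.12 (adjusted p = 0.185, 0.680 and 0.677), and none of the 3 was called without the spleen library of mouse 2 or of mouse 3, where adjusted p ran from 0.152 to 0.497. Slfn1, Slfn2 and Slfn8 were lower than spleen in the omental library of mouse 3, while Slfn5 was higher. Against the omental library of mouse 2, each was higher there, at 4.28, 1.85, 1.92 and 2.47 times its level in that order.

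**Figure D4:**
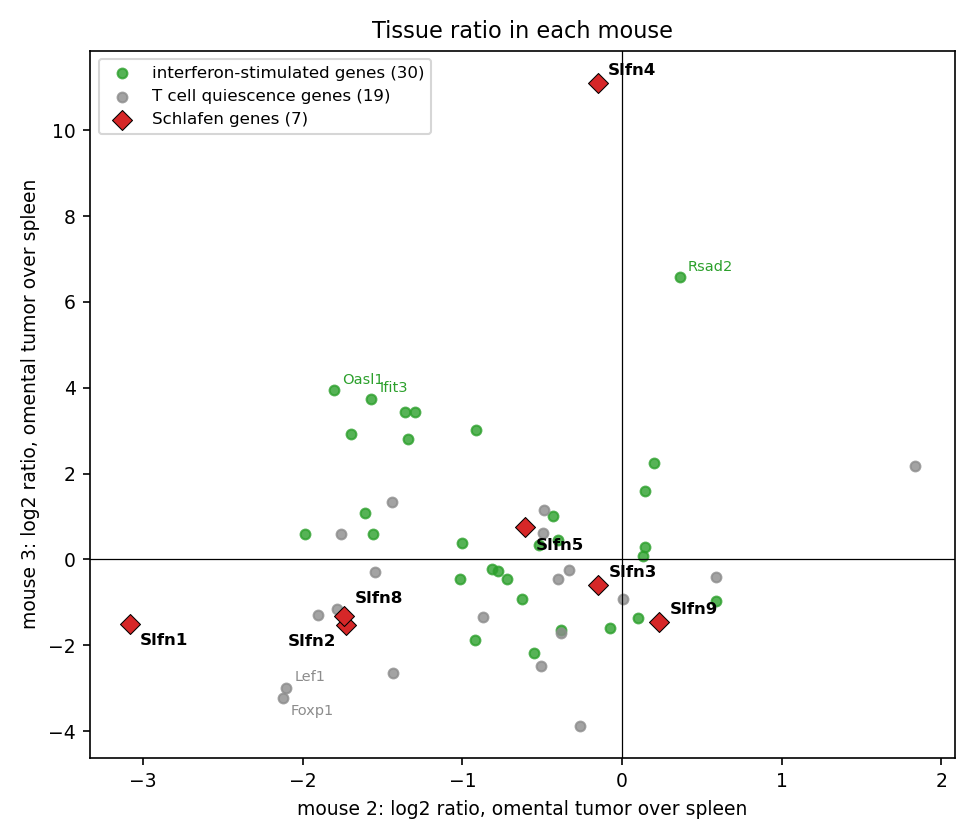
Log2 ratio of omental tumor over spleen in mouse 2 (x axis) and mouse 3 (y axis) for the 7 Schlafen genes, 30 interferon-stimulated genes and 19 T cell quiescence genes. Slfn1, Slfn2, Slfn3 and Slfn8 lie at negative values in both mice with Foxp1 and Lef1, and Slfn4, at 11.10 in mouse 3, lies above Rsad2.

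Genes linked to T cell quiescence, the state that Slfn2 maintains, were tested in 19 cases. Their median was -0.93 on the log2 scale (0.13 over all tested genes), and 15 were negative (7527 of all 16322 tested genes were). In edgeR's quasi-likelihood test none was called higher or lower. The 3 with the smallest p-values were Foxp1, Lef1 and Bach2, transcription factors of naive and resting T cells. Foxp1 stood at 70.8 and 32.0 CPM in omental tumor and 309 and 300.4 CPM in spleen (log2 fold change -2.56, adjusted p = 0.0825 in edgeR). Lef1 stood at 71.0 and 45.7 CPM against 305 and 361 CPM (-2.51, adjusted p = 0.0985), and Bach2 had a log2 fold change of -1.89 (adjusted p = 0.346). DESeq2 called Foxp1 (adjusted p = 0.00933) and Lef1 (adjusted p = 0.0107) lower, and limma-voom called Foxp1 (adjusted p = 0.0400). Over all 16322 genes, DESeq2 called 124 lower and limma-voom 56. Foxp1, Lef1 and Bach2 were lower in omental tumor in both mice, as Slfn1, Slfn2 and Slfn8 were.

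Genes around transfer RNA cleavage and RNA-sensing were measured because Slfn2 protects transfer RNA from the ribonuclease angiogenin. Of 10 tested, 0 were called, with a median of -0.28. Ang, which encodes angiogenin, stood at 1.05 and 6.56 CPM in omental tumor and 0.585 and 2.28 CPM in spleen (log2 fold change 1.28, adjusted p = 0.717 in edgeR). Eif2ak1, a stress kinase gene, had a log2 fold change of -0.84 (adjusted p = 0.710).

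The summed level of 17 T lineage markers was 7470 and 7892 CPM in omental tumor against 8436 and 13424 CPM in spleen, and 0 of 17 were called. The median log2 fold change of that list was -0.51 (0.13 over all tested genes). It held 15 negative and 2 positive values (7527 of all 16322 tested genes were negative). Lck, the kinase of the T cell receptor, and Cd4 had log2 fold changes of -1.49 and -1.68 (adjusted p = 0.629 and 0.503 in edgeR). These fitted values lay near those of Slfn2 and Slfn8, but the ratios by mouse did not. In mouse 2 and mouse 3 the log2 ratios were -0.59 and -3.14 for Cd4, and -0.81 and -2.15 for Lck. For Slfn2 they were -1.73 and -1.54, and for Slfn8 -1.74 and -1.31. Foxp3 and Il2ra had log2 fold changes of -0.64 and -0.65 (adjusted p = 0.772 and 0.799 in edgeR). Ctla4, of the T lineage list, was higher in omental tumor in both mice. It stood at 1235 and 1285 CPM against 389 and 762 CPM in spleen (1.13, adjusted p = 0.701). Summed B and plasma cell markers (10 genes) were 584 and 43.4 CPM in omental tumor and 217 and 245 CPM in spleen. Of these, Jchain stood at 464 and 5.30 CPM against 149 and 186 CPM, and Cd79b at 19.4 and 15.1 CPM against 28.9 and 41.7 CPM. Fibroblast and mesothelial markers (11 genes) were at 188 and 18.7 CPM against 20.6 and 8.21 CPM, and dendritic cell markers (9 genes) at 172 and 153 CPM against 97.7 and 115 CPM. Natural killer and CD8 T cell markers (9 genes) ran from 45.9 to 76.8 CPM over the 4 libraries. Mast cell, basophil and eosinophil markers (9 genes) ran from 11.4 to 49.9 CPM and red cell and platelet markers (8 genes) from 2.83 to 9.94 CPM. Of these lists, 1 gene was called, Col3a1 (a collagen gene of fibroblasts), higher in omental tumor at 90.9 and 2.02 CPM against 2.63 and 1.82 CPM. Its log2 fold change was 4.39 (adjusted p = 0.000426 in edgeR), and it was not called with the replicate block (2.85, adjusted p = 0.176) or without the omental library of mouse 2 (-0.15), the spleen library of mouse 2 or that of mouse 3. The part of these cells in the Schlafen levels was not tested.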

How the data were processed

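Total RNA of sorted Tregs was turned into cDNA with SMART-seq v4 and into libraries with Nextera XT, per the labels' protocols. The deposited files hold raw read counts per gene symbol, and Trim Galore, TopHat2, SAMtools, HTSeq and build mm10 were used by the authors, per the submitters' processing notes. Not given in the sources used here: versions, annotation and the strand option. HTSeq summary entries were left out of library sizes. They held the entries outside genes (24.8% to 48.9% of a file) and alignments that were not unique, and genes received 17.1% and 22.2% in the omental libraries of mouse 2 and mouse 3 and 24.9% and 46.0% in the spleen libraries.

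The gene counts went into edgeR 4.0.16 (R 4.3.3): filterByExpr at a minimum count of 10, TMM factors (0.806 to 1.15), estimateDisp, glmQLFit with legacy = FALSE and glmQLFTest on tissue, with Benjamini-Hochberg adjustment over 16322 genes at 0.05. Positive values mean higher in omental tumor, and the SE of a log2 fold change is its size over the root of its F statistic. The prior degrees of freedom were infinite, so p-values do not measure a gene's own spread. Exon and coding lengths come from GENCODE M21 (basic set) and promoters from RefSeq. Shared runs of 50 bases were counted over GENCODE transcripts. Likeness used log2 CPM with a prior count of 2.

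The members, gene lists and tests were chosen with earlier results of these data known. Named genes were the members, other Schlafen genes, sort markers, the 3 smallest p-values per pathway list, the 2 most abundant genes per cell type list, 3 neighbours on each side, and the 3 genes nearest in pattern. A subset of these is printed, some genes are not reported here, and Slfn5os was added with its values known. The labels name mouse 2 and mouse 3 as the source in both tissues, which pairs the samples by tumor-bearing mouse. Deviations from tissue means correlated at 0.234 across genes between the 2 tissues of a mouse. With 2 libraries per tissue the mice mirror each other, so this is a single value. Alternatives were RLE, upper-quartile and no factors, no filter, a stricter count minimum (50), limma-voom (limma 3.58.1), DESeq2 1.42.0 (3481 adjusted p left as NA), robust and legacy fits, the replicate block, adjusted p of 0.01 and leaving out each library. The test was checked on simulated data, where it called 0 of 48 tested genes with a 2-fold change and 5 of 47 with a 4-fold change. It called 25 of 48 with a 16-fold change and 45 of 50 with a 64-fold change.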

Additional observations from a re-analysis of the deposited data

How the results depend on the processing

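Slfn1, Slfn2 and Slfn8 had negative log2 fold changes under each of the 15 alternatives tried and were called under none of them. Slfn4 had a positive value in each and was called in 8. The replicate block changed the call of Slfn4 as printed above and of no other member, and 263 genes were called with it against 233 without. The number of genes called was 28 with library gene totals alone, 370 with DESeq2, 146 at an adjusted p of 0.01, and 0 both without a filter (1903 at an unadjusted p of 0.05) and at a minimum count of 50 (1143). Leaving out single libraries gave 60 (spleen, mouse 2), 77 (omental, mouse 3), 97 (spleen, mouse 3) and 273 (omental, mouse 2). Of the members, 0 were called with gene totals alone, no filter, a minimum count of 50, DESeq2, the block, or without either mouse 3 library, and 1 otherwise. Slfn3 turned to 0.13 with upper-quartile factors and 0.11 at a minimum count of 50, and S100a8 to -0.67 with limma-voom. The cause of these changes was not tested.

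When each library was left out in turn, the log2 fold change ranged from -0.68 to 0.13 for Slfn3, from -0.67 to 0.71 for Slfn5, from -1.21 to 0.18 for Slfn9 and from -0.90 to 3.77 for Slfn14. It ranged from -0.011 to 6.79 for Rsad2, from -2.08 to 4.10 for Oasl1, from -1.83 to 3.89 for Ifit3 and from -0.56 to 3.06 for Ang. For S100a9 it ranged from -2.47 to 5.83 and for S100a8 from -5.86 to 5.68. Col3a1 ranged from -0.15 to 5.26, and Jak1 from -1.72 to 0.035.

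The median log2 fold change over all genes moved from 0.13 to 0.62 with upper-quartile factors and to 0.39 with library gene totals alone. Minus the median of each fit, Slfn2 stood at -1.73, and ran from -2.35 without the mouse 2 spleen library to -0.93 without the mouse 2 omental library. With 2 libraries per tissue, values near 0 carry no direction.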
